A study of Mus musculus with 23 samples.

Results

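The genes described here encode the 3 main scaffold families of the excitatory postsynaptic density, with Dlg1, Dlg2, Dlg3 and Dlg4 in the first, Shank1, Shank2 and Shank3 in the second, and Dlgap1, Dlgap2 and Dlgap3 in the third. They were chosen by name, with earlier results of these data known, and matched by Ensembl identifier. All 10 were found among the 45706 gene identifiers of the count table. Polyadenylated RNA of mouse hippocampal neurons was sequenced in 23 libraries from 3 populations, which the labels call CamK, Grik and SST. CamK and Grik are labelled as excitatory pyramidal cells and SST as somatostatin-positive interneurons, and the design text names CA1, CA3 and SST+ populations. Each population came from mice labelled SLM2 WT and from mice labelled SLM2 cKO, a conditional knockout of Khdrbs3, the gene of the splicing factor SLM2, which binds RNA. There were 4 libraries of CamK WT, 3 of CamK cKO, and 4 each of Grik WT, Grik cKO, SST WT and SST cKO. The age, sex and strain of the mice, the Cre driver lines beyond the population names, and the way the cells were isolated are not given in the sources used here. Nothing in the labels says that libraries of a group came from separate animals, so p-values measure the spread between these libraries, which may be technical. All 10 genes passed the filter on low counts, and a member had between 4773 and 137146 reads in a library.

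The postsynaptic density is a protein layer under the membrane of excitatory synapses, opposite the site of glutamate release. Dlg proteins lie closest to the membrane, where their PDZ domains hold the tails of receptors, channels and adhesion molecules. Dlgap proteins, also known as GKAP or SAPAP, bind the guanylate kinase domain of Dlg proteins with one region and the PDZ domain of Shank proteins with their last residues, and Shank proteins connect this assembly to Homer and to the actin cytoskeleton. All 3 families are best known from the dendritic spines of pyramidal cells, which somatostatin interneurons have in smaller number.

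The contact between the Dlgap and Shank families is shown here as the end of the Dlgap coding sequences, which encodes the last residues, through which the families meet. In GENCODE M21 (GRCm38) the last 30 coding bases of the longest complete coding transcript lie on the plus strand at chr17:70818205-70818234 for Dlgap1, chr8:14846679-14846708 for Dlgap2 and chr4:127236339-127236368 for Dlgap3, each in 1 exon. Capitals mark the last 4 codons and the stop codon.
Dlgap1: tacatccccgaggcgCAGACCCGGCTCTGA
Dlgap2: tacatccctgaggccCAGACGCGGCTCTGA
Dlgap3: tacatccccgaggccCAGACCAGGCTGTGA
Over these 30 bases Dlgap1 matched Dlgap2 at 27 positions and Dlgap3 at 27, and Dlgap2 matched Dlgap3 at 26. Of the 3 genes that end alike, Dlgap1 and Dlgap3 had their highest mean in CamK and Dlgap2 in SST, as described below for each of them.

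Library depth, as reads in genes, ran from 87612006 to 112993538, and the median library had 91378465. Khdrbs3, checked first because it is the targeted gene, had 373 ± 27.0 CPM (reads per 1000000 reads in genes, with SD) in 4 CamK WT libraries and 278 ± 25.1 CPM in 3 CamK cKO libraries, with all cKO libraries lower (log2 fold change -0.42, edgeR adjusted p = 0.114). In SST it had 130.2 ± 8.31 CPM in WT and 93.8 ± 10.5 CPM in cKO (n = 4 each), again with all cKO libraries lower (log2 -0.47, edgeR adjusted p = 0.0309). The Grik libraries labelled cKO went the other way, with 414 ± 18 CPM against 336 ± 8.61 CPM in WT (n = 4 each, log2 0.30, edgeR adjusted p = 0.499), each cKO library being above each WT library. The genotype effect on Khdrbs3 in Grik differed past the threshold from that in CamK and from that in SST (edgeR adjusted p = 0.0154 and 0.00135). Whether these libraries carry the right genotype label was not tested, so cKO in the Grik results below means the libraries labelled cKO. Which part of the gene the conditional allele removes is not given in the sources used here. Of the defining markers of the populations, the 5 pyramidal ones summed to 5450 to 7842 CPM in CamK and Grik libraries, against 735 to 1046 CPM for SST. The 4 GABAergic markers summed to 48.4 to 155 CPM in CamK and Grik and to 4534 to 6685 CPM in SST, and the 4 SST interneuron markers to 15.1 to 47.2 CPM in CamK and Grik and to between 1344 and 3334 CPM in SST libraries. The 4 markers of other interneurons summed to 286 to 455 CPM in CamK and Grik, mostly from Cck. In SST they summed to 135.5 to 247 CPM, mostly from Pvalb, with means of 140 CPM in WT and 152 CPM in cKO. The 4 CA1 markers summed to 1006 to 1668 CPM in CamK and 50.5 to 95.7 CPM in Grik. Their sum in SST, 392 to 430 CPM, came mostly from Mpped1, with means of 334 CPM in WT and 348 CPM in cKO. The 4 CA3 markers summed to 239 to 292 CPM in CamK and 654 to 814 CPM in Grik. For the 3 dentate granule markers the sums were 97.85 to 259.3 CPM in CamK, 126.5 to 149.7 CPM in Grik and 27.64 to 40.39 CPM in SST. The 20 markers of astrocytes, oligodendrocytes, microglia and endothelial cells summed to 155 to 320 CPM in CamK, and Grik and SST had more, with 744 to 1145 and 313 to 1218 CPM, mostly from oligodendrocyte genes.

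Dlg4, which encodes PSD-95, the most studied scaffold of the excitatory synapse, had the largest difference between CamK and SST of the 10 members in WT libraries. The gene lies on the plus strand at chr11:70016942-70047522. In CamK it stood at 1211, 1279, 1549 and 1366 CPM in the WT libraries and at 1353, 1206 and 1209 CPM in the cKO libraries. In Grik it stood at 868, 909, 972 and 1013 CPM in WT and at 1027, 1049, 934 and 1011 CPM in cKO. SST libraries had 496, 494, 471 and 519 CPM in WT and 515, 503, 543 and 522 CPM in cKO. Every CamK library was above every Grik library, and every Grik library was above every SST library. Dlg4 was 2.73-fold higher in CamK WT than in SST WT (log2 fold change 1.45, SE 0.07, edgeR adjusted p = 8.66e-15) and 2.41-fold higher between the cKO groups (log2 1.27, SE 0.08, edgeR adjusted p = 3.71e-13). Grik exceeded SST by 0.92 on the log2 scale in WT (edgeR adjusted p = 2.85e-11) and by 0.95 in cKO (edgeR adjusted p = 1.78e-11). The step from Grik to CamK was 0.52 in WT (SE 0.07, edgeR adjusted p = 1.37e-06) and 0.32 in cKO (SE 0.08, edgeR adjusted p = 0.00143), and the difference between these steps, -0.20 with a 95% interval of -0.41 to 0.01, did not pass the test (edgeR adjusted p = 0.781). With the non-neuronal marker score as a covariate the cKO step was 0.26 and its call was lost (edgeR adjusted p = 0.0598). Because these are bulk libraries, fewer cells of a type and less RNA per cell cannot be told apart, here and in the comparisons that follow.

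Dlg1 encodes SAP97, a Dlg protein that also acts in the trafficking of glutamate receptors. It lies at chr16:31663443-31875129 on the plus strand, and its levels took the same order. CamK libraries had 136, 143, 120.0 and 119 CPM in WT and 145, 143 and 134 CPM in cKO. In Grik there were 87.6, 88.4, 79.6 and 80.1 CPM in WT and 74.0, 76.5, 87.0 and 79.7 CPM in cKO, and in SST 49.4, 50.7, 60.2 and 65 CPM in WT and 48.2, 64.0, 53.5 and 61.8 CPM in cKO. The ranges of the 3 populations did not overlap. Dlg1 was 1.54-fold higher in CamK than in Grik in WT (log2 0.63, SE 0.09, edgeR adjusted p = 6.31e-06) and 1.78-fold in cKO (log2 0.83, SE 0.10, edgeR adjusted p = 3.33e-07), the largest CamK to Grik step of the 10 members in either set. Against SST, CamK was 2.30-fold higher in WT and 2.48-fold higher in cKO (log2 1.20 and 1.31, edgeR adjusted p = 5.31e-11 and 4.21e-11).

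Dlg3 encodes SAP102, the Dlg protein prominent at young synapses, and lies on the X chromosome at chrX:100767722-100818410. The WT libraries had 527, 500, 552 and 461 CPM in CamK, 445, 448, 440.4 and 433 CPM in Grik, and 295, 295, 301 and 319 CPM in SST. The cKO libraries had 522, 577 and 527 CPM in CamK, 429.8, 404, 424 and 409.6 CPM in Grik, and 268, 323, 286 and 268 CPM in SST. Again no population overlapped another, but the step between the pyramidal populations was small. CamK exceeded Grik by 0.21 on the log2 scale in WT (SE 0.06, edgeR adjusted p = 0.0113) and by 0.38 in cKO (SE 0.07, edgeR adjusted p = 1.03e-04), while Grik exceeded SST by 0.55 in WT and 0.54 in cKO (SE 0.06 each, edgeR adjusted p = 6.85e-08 and 7.85e-08). The call of the WT step between CamK and Grik was lost without CamK WT library 4, where the step was 0.17 (edgeR adjusted p = 0.0666). It was also lost with the non-neuronal marker score as a covariate, where it was 0.10 (edgeR adjusted p = 0.550).

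Dlg2, which encodes the paralog PSD-93, did not share this gradient. It lies at chr7:90476672-92449247, and 2 annotated genes of its own strand cover 1.38% of its merged exon length. WT libraries had 394, 372, 352 and 307 CPM in CamK, 445, 396, 376 and 402 CPM in Grik, and 365, 405, 468 and 451 CPM in SST. The cKO libraries had 355, 366 and 347 CPM in CamK, 387, 366, 419 and 414 CPM in Grik, and 358, 473, 400.3 and 332 CPM in SST. In both sets the ranges of the populations overlapped. In WT the CamK level was 1.19-fold lower than that of SST (log2 -0.25, SE 0.10, edgeR adjusted p = 0.0304), a call that was lost when any one of CamK WT 4, CamK WT 5, SST WT 3 or SST WT 5 was left out (edgeR adjusted p = 0.0725 to 0.126). Between the cKO groups the difference was -0.14 (95% interval -0.35 to 0.08, edgeR adjusted p = 0.275). No comparison of Grik passed the test, with log2 fold changes of CamK against Grik of -0.18 in WT and -0.16 in cKO, and of Grik against SST of -0.06 in WT (95% interval -0.26 to 0.14) and 0.02 in cKO (95% interval -0.18 to 0.22).

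**Figure D1:**
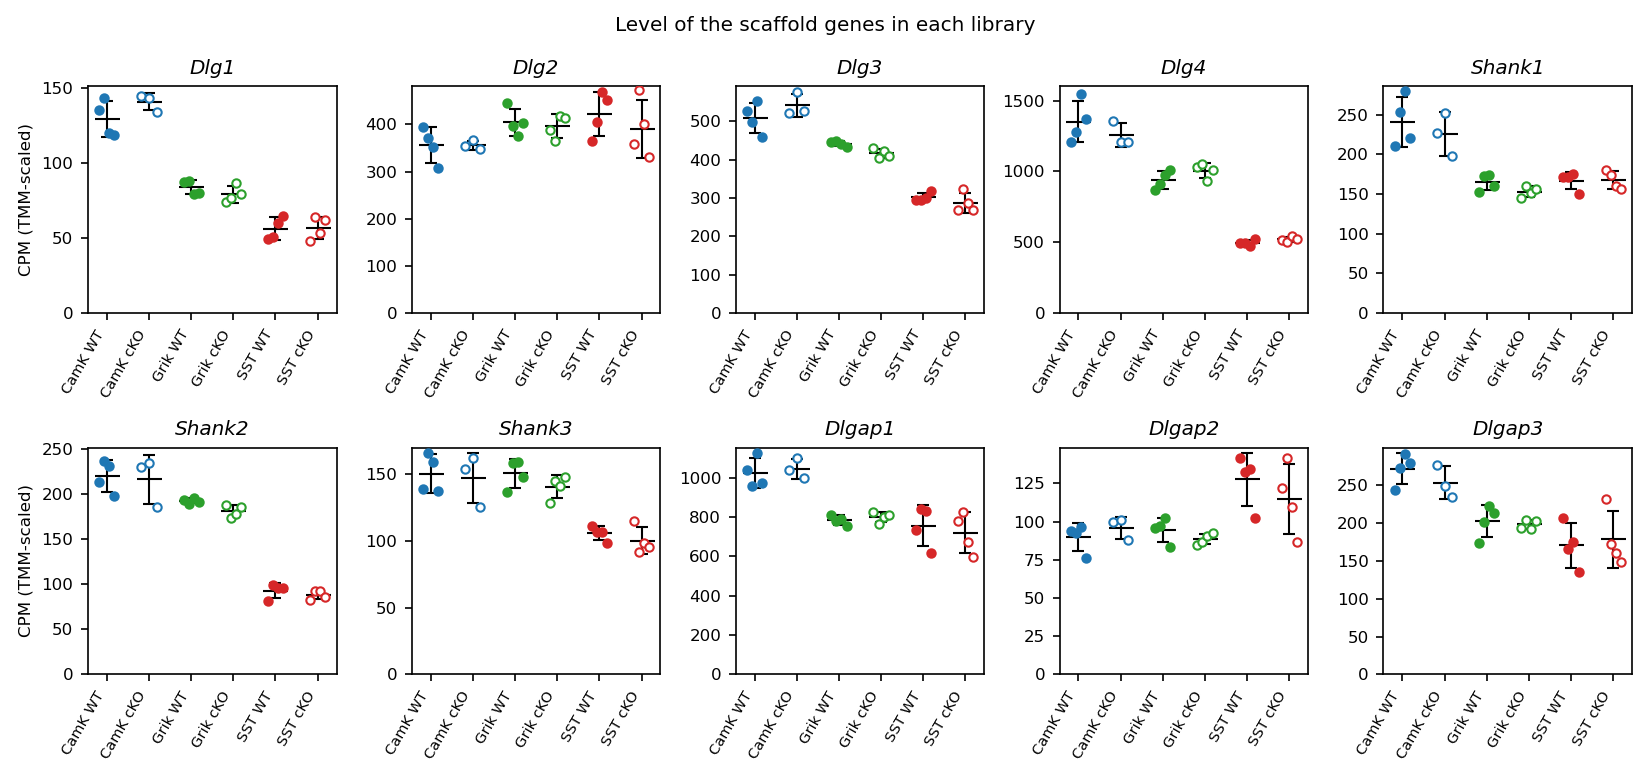
Level of each of the 10 scaffold genes in every library (CPM with TMM scaling, linear axis from 0). Points are libraries, filled for WT and open for cKO, horizontal bars are group means and error bars are SDs (n = 3 for CamK cKO, otherwise 4). Dlg1, Dlg3 and Dlg4 step down from CamK to Grik to SST without overlap, Shank2 and Shank3 are lowest in SST, with no SST library reaching a pyramidal one, and Dlgap2 is highest in SST WT.

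Among the Shank genes, which encode the large scaffolds of the deeper layer of the density, Shank2 and Shank3 were lowest in SST and Shank1 was highest in CamK. Shank2 lies at chr7:144001928-144424494 and separated pyramidal cells from interneurons. Its WT levels were 213, 237, 230.4 and 198 CPM in CamK, 194, 189, 195 and 191 CPM in Grik, and 80.8, 99.1, 96.0 and 95.3 CPM in SST. The cKO levels were 229.6, 234 and 185 CPM in CamK, 187, 173, 178 and 185 CPM in Grik, and 82.7, 92.7, 92.7 and 85.7 CPM in SST. The highest SST library, at 99.1 CPM, was far below the lowest pyramidal one, at 173 CPM. CamK exceeded SST 2.37-fold in WT and 2.44-fold in cKO (log2 1.24 and 1.29, SE 0.08 each, edgeR adjusted p = 5.53e-13 and 1.21e-12), and Grik exceeded SST 2.07-fold and 2.04-fold (log2 1.05 and 1.03, SE 0.08 each, edgeR adjusted p = 1.16e-11 and 1.65e-11). Between CamK and Grik the difference was 0.19 in WT (SE 0.08, edgeR adjusted p = 0.0426) and 0.26 in cKO (SE 0.08, edgeR adjusted p = 0.0149, with overlapping libraries). The WT call was lost in 7 of 8 fits that left out a library, all but the one without CamK WT 5 (edgeR adjusted p = 0.0518 to 0.138 in the 7), and also with relative log expression scaling, without a filter on low counts or with DESeq2 (adjusted p = 0.0538, 0.0642 and 0.0511), with the replicate number as a block (0.16, edgeR adjusted p = 0.130) and with the non-neuronal covariate (0.22, edgeR adjusted p = 0.241). The cKO call was lost without CamK cKO 4 or CamK cKO 5 (edgeR adjusted p = 0.0897 and 0.0996) and with the non-neuronal covariate (0.28, edgeR adjusted p = 0.0664).

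Shank3, at chr15:89499623-89560261, did not differ past the threshold between the pyramidal populations and was lower in SST. CamK libraries had 139, 166, 159 and 137 CPM in WT and 153, 162 and 125 CPM in cKO, and Grik libraries had 136, 158, 159 and 148 CPM in WT and 128, 144, 141 and 148 CPM in cKO. In SST the values were 111, 106, 107 and 98.5 CPM in WT and 115, 91.6, 98.3 and 95.3 CPM in cKO. No SST library reached the lowest pyramidal one. The log2 fold change from Grik to CamK was -0.0018 in WT (95% interval -0.18 to 0.17) and 0.07 in cKO (95% interval -0.12 to 0.25), with edgeR adjusted p = 0.991 and 0.629. Pyramidal cells exceeded SST by 0.51 for CamK and 0.51 for Grik in WT (SE 0.09 each, edgeR adjusted p = 1.47e-05 for both) and by 0.55 and 0.49 in cKO (SE 0.09 each, edgeR adjusted p = 1.34e-05 and 2.54e-05). An annotated antisense gene covers 2.95% of the merged exon length of Shank3, and with the strand setting of the counting not given, its reads cannot be told apart.

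Shank1, at chr7:44310253-44360572, set CamK apart from both other populations instead. The WT libraries had 211, 253, 279 and 220.1 CPM in CamK, 153, 173, 174 and 159 CPM in Grik, and 171, 172, 175 and 150.5 CPM in SST. In the cKO groups there were 227, 252 and 198 CPM in CamK, 145, 160.4, 151 and 156 CPM in Grik, and 180.4, 174, 159.9 and 156 CPM in SST. Grik and SST overlapped in both sets, and all CamK libraries were above all others. CamK exceeded Grik 1.46-fold in WT and 1.47-fold in cKO (log2 0.55 and 0.56, SE 0.09 each, edgeR adjusted p = 1.17e-05 and 2.45e-05) and SST by 0.53 and 0.43 on the log2 scale (SE 0.09 each, edgeR adjusted p = 8.11e-06 and 2.88e-04). The calls against SST were lost in both sets with the non-neuronal marker score as a covariate, with the WT value given below. Grik against SST gave -0.02 in WT (95% interval -0.19 to 0.16) and -0.13 in cKO (95% interval -0.31 to 0.05). An antisense gene covers 3.22% of its merged exon length.

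The Dlgap genes, which link the other families, also split. Dlgap2 was the only member whose highest mean was in SST in both sets. It lies at chr8:14095865-14847680. Its WT libraries had 93.6, 92.4, 96.6 and 76.3 CPM in CamK, 95.5, 97.2, 102.2 and 83.7 CPM in Grik, and 142, 132, 134 and 102.6 CPM in SST. The cKO libraries had 99.5, 101 and 87.9 CPM in CamK, 84.9, 87.0, 90.5 and 92.4 CPM in Grik, and 122, 142, 109.5 and 86.9 CPM in SST. In WT all SST libraries were above all others, the lowest of them by a narrow margin, and in cKO SST library 7 fell among the pyramidal ones. SST exceeded CamK in WT 1.42-fold (log2 -0.51 for CamK against SST, SE 0.11, edgeR adjusted p = 4.37e-04) and exceeded Grik in both sets (log2 -0.43 and -0.38 for Grik against SST, SE 0.11 each, edgeR adjusted p = 0.00216 and 0.00668). In cKO the CamK to SST difference of -0.26 (SE 0.12) missed the threshold (edgeR adjusted p = 0.0761) and passed it without SST cKO 7 (-0.37, edgeR adjusted p = 0.00612). That library also had the lowest GABAergic sum of the SST libraries, 4534 CPM, and the highest non-neuronal sum, 1218 CPM, and their part in its Dlgap2 level was not tested. The difference between the WT and cKO values did not pass the interaction test (0.25, 95% interval -0.10 to 0.59, edgeR adjusted p = 0.702).

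Dlgap1 spans chr17:69969073-70821413, with an antisense gene over 0.514% of its merged exon length, and was highest in CamK. WT libraries had 1041, 959, 1127 and 973 CPM in CamK, 811.5, 779, 792 and 755 CPM in Grik, and 735, 841, 831 and 617 CPM in SST. The cKO libraries had 1039.9, 1099 and 998 CPM in CamK, 826, 762, 802 and 810.2 CPM in Grik, and 779, 828, 675 and 599 CPM in SST. All CamK libraries were above all others, and the Grik range lay inside the wider SST range in both sets. CamK exceeded Grik 1.31-fold in WT and in cKO (log2 0.39 each, SE 0.09 and 0.10, edgeR adjusted p = 0.00134 and 0.00292) and SST 1.36-fold and 1.45-fold (log2 0.44 and 0.54, edgeR adjusted p = 1.95e-04 and 4.65e-05). With the non-neuronal marker score as a covariate the log2 differences from SST came to 0.15 in WT and 0.31 in cKO (edgeR adjusted p = 0.549 and 0.118). Those from Grik came to 0.16 and 0.23 (edgeR adjusted p = 0.488 and 0.191). Grik against SST was 0.05 in WT (95% interval -0.13 to 0.24) and 0.15 in cKO (95% interval -0.04 to 0.34).

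Dlgap3, the shortest of the Dlgap loci at chr4:127169204-127237022, was also highest in CamK. Its CamK libraries had 243, 272, 291 and 279 CPM in WT and 276, 249 and 234 CPM in cKO. Grik libraries had 173, 200.4, 222 and 213 CPM in WT and 193, 204, 192 and 203 CPM in cKO, and SST libraries had 207, 165, 174 and 135 CPM in WT and 232, 172, 159.5 and 149 CPM in cKO. CamK libraries were above all Grik and SST libraries in either set, in cKO by a margin of 234 against 232 CPM. CamK exceeded Grik by 0.42 in WT and 0.35 in cKO on the log2 scale (SE 0.12 and 0.13, edgeR adjusted p = 0.00562 and 0.0324) and SST by 0.67 and 0.51 (edgeR adjusted p = 3.18e-05 and 0.00156), which came to 0.31 and 0.21 with the non-neuronal score as a covariate (edgeR adjusted p = 0.307 and 0.450). The differences from Grik came to 0.13 and 0.15 with it (edgeR adjusted p = 0.681 and 0.562). The cKO step to Grik was lost without CamK cKO 4, CamK cKO 5, Grik cKO 1 or Grik cKO 3 (edgeR adjusted p = 0.147, 0.0608, 0.0649 and 0.0621). Grik against SST missed the threshold (0.25 in WT and 0.15 in cKO, edgeR adjusted p = 0.0782 and 0.282). It passed it when the SST library with the most reads was left out of each set, SST WT 1 and SST cKO 3. The values were then 0.36 in WT and 0.31 in cKO (edgeR adjusted p = 0.00236 and 0.00753). This removal was chosen after seeing the data. Both libraries also had the highest Dlgap3 level of their SST group, 207 and 232 CPM, so leaving them out had to widen the difference.

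**Figure D2:**
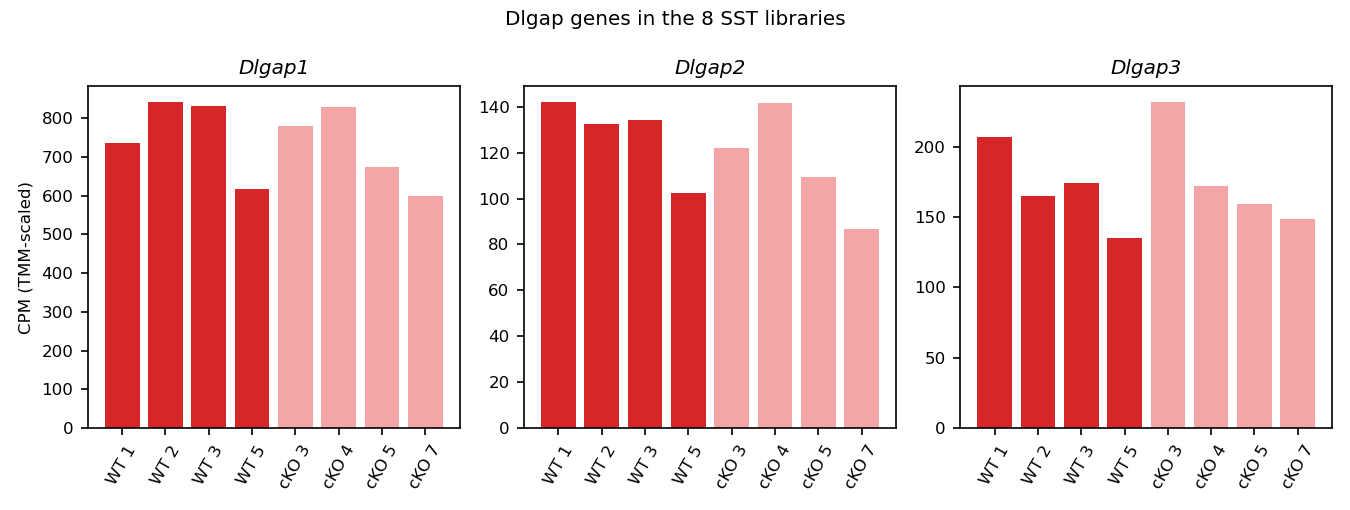
Dlgap1, Dlgap2 and Dlgap3 in each of the 8 SST libraries (CPM with TMM scaling, bars from 0, 1 library per bar, dark for WT and light for cKO). SST WT 5 and SST cKO 7 have the lowest bars of all 3 genes in their groups, and SST WT 1 and SST cKO 3 the highest of Dlgap3, 207 and 232 CPM.

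Counted over the families, 7 of 10 members were called between CamK and Grik in WT and 7 of 10 in cKO, all higher in CamK, where 42.0% and 35.7% of the 18823 genes tested were called and 20.9% and 17.4% were called higher in CamK. CamK against SST called 10 of 10 in WT, 8 higher and 2 lower, beside 60.1% of all genes (29.5% higher and 30.5% lower), and 8 of 10 in cKO, all higher, beside 56.4% (26.9% higher). For Grik against SST there were 6 calls in each set, 5 higher and 1 lower, beside 57.3% of all genes in WT (28.1% higher and 29.2% lower) and 57.9% in cKO (27.9% and 30.0%), so that count was close to the background. The same members were called in the WT and in the cKO libraries, which are separate samples, for 7 genes higher in CamK than in Grik, 8 higher in CamK than in SST, and 5 higher and 1 lower in Grik than in SST. The comparisons of populations within a set share libraries, as each group enters 2 of them. The median log2 fold change over the members was 0.60 for CamK against SST in WT, 0.30 for CamK against Grik and 0.38 for Grik against SST, beside -0.02, 0.01 and -0.03 over all genes tested. The non-neuronal marker sum moved with the populations, and all 20 of its genes were lower in CamK than in Grik and in SST in WT, 15 and 18 of them past the threshold. With that score as a covariate, 3 members were called between CamK and Grik in WT, 3 in cKO, 6 between CamK and SST in WT and 6 in cKO, beside 22%, 24.5%, 36.7% and 37.4% of all genes in the same fit. The score itself, a mean log2 CPM, ran from -0.34 to 1.51 in CamK and from 1.69 upward in the other populations, so that it and the population cannot be told apart in comparisons of CamK. Among the 4 lost in each of the first 2, Shank2, Dlgap1 and Dlgap3 were lost in both sets, Dlg3 in WT and Dlg4 in cKO. The log2 fold change of Shank2 was then 0.22 in WT and 0.28 in cKO, no smaller than without the covariate, and that of Dlg4 in cKO was 0.26, while in WT Dlgap1 came to 0.16, Dlgap3 to 0.13 and Dlg3 to 0.10, and in cKO Dlgap1 to 0.23 and Dlgap3 to 0.15. Between CamK and SST the calls of Shank1, Dlgap1 and Dlgap3 were lost in both sets and that of Dlg2 in WT, where Dlg2 was at -0.35, farther from 0 than without the covariate, and Shank1 at 0.39, and the call of Dlgap2 was gained in cKO.

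**Figure D3:**
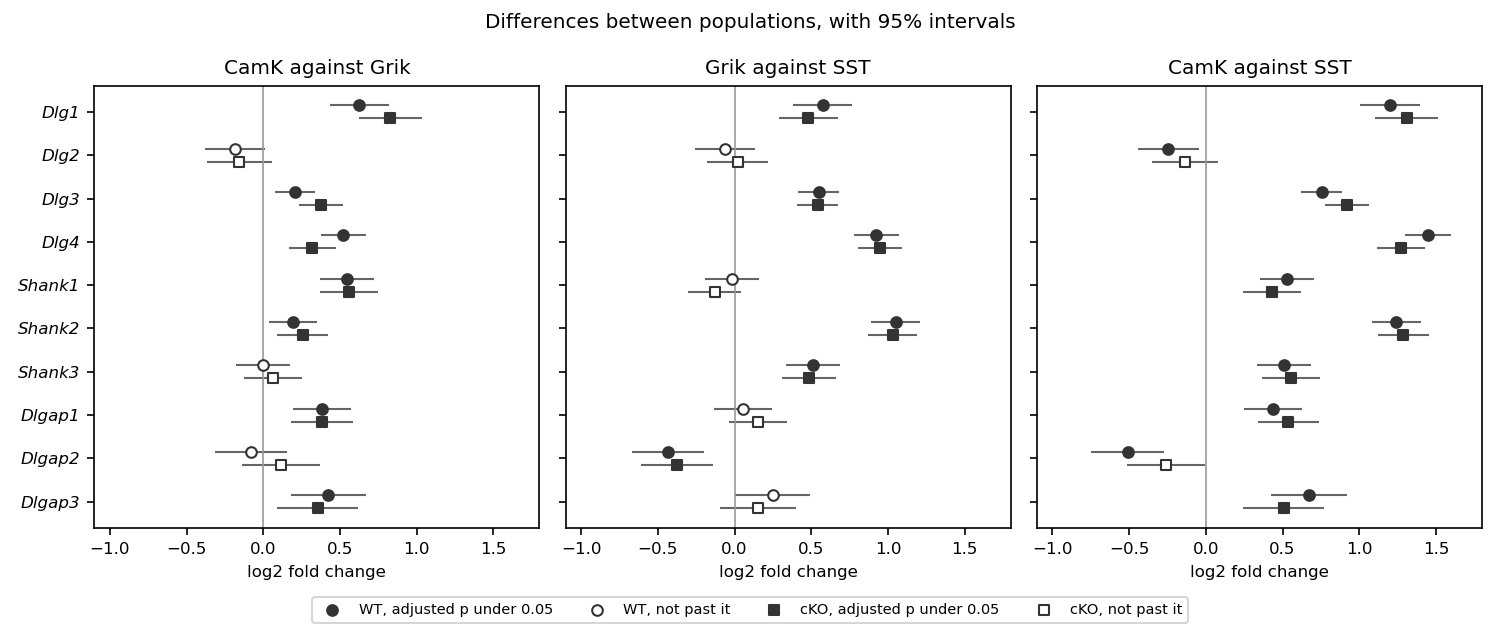
Log2 fold changes of the 10 genes between populations, with 95% intervals, from the edgeR fit (circles WT, squares cKO, filled where the adjusted p was under 0.05). In CamK against SST, Dlg4 lies farthest right in WT, at 1.45, and Dlg1 in cKO, at 1.31, and Dlgap2 lies left of 0 in both comparisons with SST.

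The shares of several paralogs in their family's sum moved between the populations. To compare genes, levels were divided by merged exon length (CPM per kb) and given as shares of the family sum, with no test. Dlg4 made up 45.7 ± 3.19% of the Dlg sum in CamK WT, 39.6 ± 2.23% in the Grik WT group and 31.1 ± 1.42% in that of SST, and 42.6 ± 2.34%, 42.4 ± 1.92% and 33.5 ± 2.69% in the cKO groups (SD). Dlg2 went from 9.83 ± 1.13% in CamK WT through 13.9 ± 1.08% in Grik WT to 21.5 ± 1.71% in SST WT, and Dlg3 held 39.1 to 43.0% of the sum in the WT groups. In CPM per kb, Dlg4 was the highest Dlg gene in CamK WT, at 102 ± 11, and Dlg3 in SST WT, at 51.7 ± 1.95. Shank2 made up 34.3 ± 1.35% of the Shank sum in CamK WT, 35.8 ± 1.63% in Grik and 24.0 ± 2.19% in SST libraries of that genotype, and Shank1 38.4 ± 1.8%, 31.4 ± 0.693% and 44.1 ± 1.35%. Dlgap2 rose in share from 11.1 ± 1.03% in CamK WT to 14.8 ± 1.08% in Grik WT and 20.6 ± 0.252% in SST WT, with Dlgap3 at 45.5 ± 2.47%, 42.9 ± 3.13% and 37.3 ± 3.01% and Dlgap1 at 42.1 to 43.4%. The shares themselves depend on the length used: by longest transcript Dlg4 came to 55.9, 49.2 and 38.9% and was the highest Dlg gene in SST WT too, and Dlgap3 came to 28.4, 26.9 and 23.2%, but the order of the populations for these genes was the same. With no length scaling Dlgap1 came to 71.7 to 73.9% of its family in the WT groups. Dlg2 then came to 15.2, 21.6 and 33.0% in CamK, Grik and SST WT, Dlg3 to 21.7, 23.6 and 23.7%, and Dlgap2 to 6.47, 8.74 and 12.1%.

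**Figure D4:**
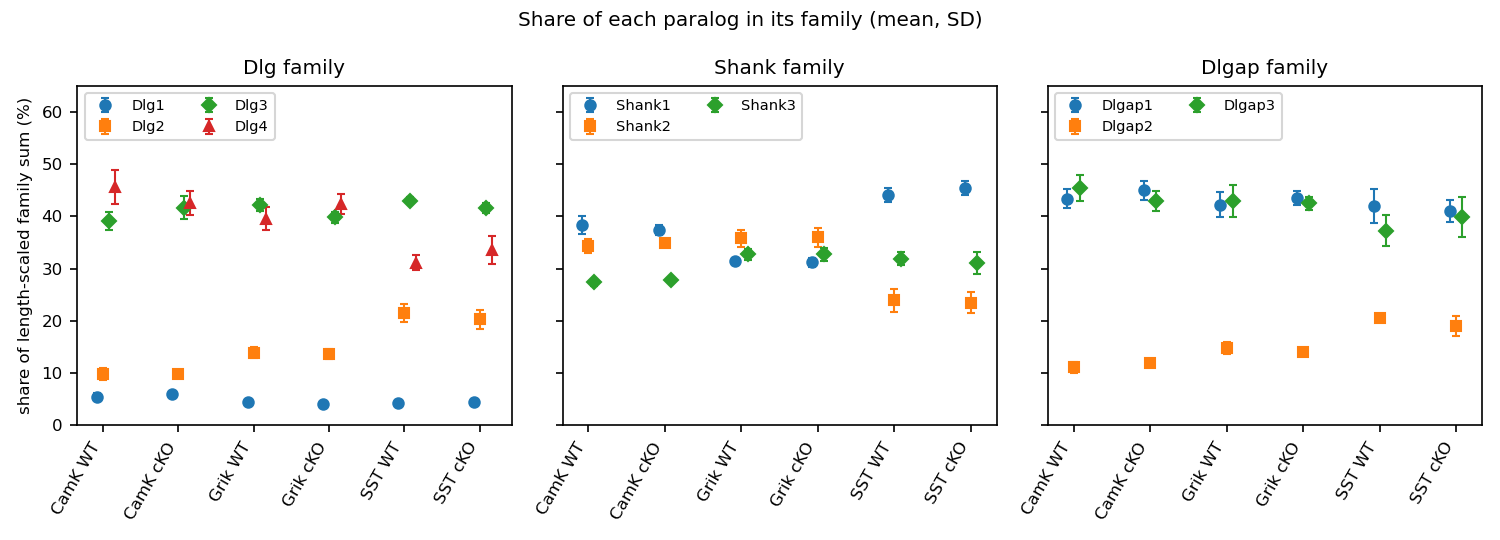
Share of each paralog in the length-scaled sum of its family (percent, merged exon length), as means with SDs of 3 (CamK cKO) or 4 libraries. Dlg4 falls and Dlg2 rises from CamK to SST, Shank2 is lower and Shank1 higher in SST, and Dlgap2 rises to 20.6% in SST WT.

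Across all 23 libraries, log2(CPM + 1) of Dlg3 and Shank2 had a Pearson r of 0.96, Dlg4 and Shank2 0.96, and Dlg3 and Dlg4 0.95, while Dlg4 and Dlgap2 had -0.73 and Dlg4 and Dlg2 -0.46. These values describe mainly the 3 populations and are given with no test. Among 8921 other genes with a mean of at least 10 CPM, those most like Dlg4 were Stx6, a syntaxin of the endosomal and Golgi system, and Med10, a subunit of the Mediator complex (r 0.99 each). Those most like Dlg1 were Itpr1, the inositol trisphosphate receptor of the endoplasmic reticulum, and Ipcef1 (r 0.98 each), and those most like Dlg3 were Gpd1l and the transcription factor Mef2d (r 0.98 each). Shank2 was most like Nol4 and Sipa1l1, a postsynaptic regulator of Rap (r 0.99 each), Shank3 most like Trim46, which organises microtubules in the proximal axon, and Synj2 (r 0.94 each), and Shank1 most like the helicase Ddx41 and the receptor phosphatase Ptpru (r 0.95 and 0.94). Dlg2 was most like Relch and the ubiquitin ligase Ube3a (r 0.92 and 0.91), Dlgap1 most like Tmem200a and Hnrnpul1 (r 0.94 and 0.92), Dlgap2 most like the splicing factor Prpf6 and Vps39 (r 0.94 and 0.91), and Dlgap3 most like Rexo1 and the linker histone H1fx (r 0.94 each).

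Promoter sequence is shown for the Dlg genes at the ends of this range, Dlg3 and Dlg4, which moved together across the populations, and Dlg2, which did not move with them. RefSeq (GRCm38.p6) gave 16 promoters for 7 members, Dlg1, Dlg2, Dlg3, Dlg4, Shank3, Dlgap1 and Dlgap3, and the one with most CG dinucleotides is printed for each of the 3 genes, as the 250 bases before the start. They lie on the plus strand at chrX:100777021-100777270 (Dlg3), chr11:70023732-70023981 (Dlg4) and chr7:91090536-91090785 (Dlg2). Capitals mark matches on either strand to GGGCGG (the GC box), CAGCTG and CAGATG (E-boxes), CACGTG (a further E-box) or TGACGTCA (the full cyclic AMP response element).
Dlg3: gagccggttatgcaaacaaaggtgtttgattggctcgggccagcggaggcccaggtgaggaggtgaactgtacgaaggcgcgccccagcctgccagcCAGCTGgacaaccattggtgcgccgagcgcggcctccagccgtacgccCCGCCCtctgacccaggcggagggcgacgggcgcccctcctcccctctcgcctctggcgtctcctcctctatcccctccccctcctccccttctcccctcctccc
Dlg4: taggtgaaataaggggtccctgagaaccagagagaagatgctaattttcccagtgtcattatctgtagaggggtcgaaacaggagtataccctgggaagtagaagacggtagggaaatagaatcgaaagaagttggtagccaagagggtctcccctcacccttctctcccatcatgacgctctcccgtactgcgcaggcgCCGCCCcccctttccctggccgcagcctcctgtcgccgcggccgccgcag
Dlg2: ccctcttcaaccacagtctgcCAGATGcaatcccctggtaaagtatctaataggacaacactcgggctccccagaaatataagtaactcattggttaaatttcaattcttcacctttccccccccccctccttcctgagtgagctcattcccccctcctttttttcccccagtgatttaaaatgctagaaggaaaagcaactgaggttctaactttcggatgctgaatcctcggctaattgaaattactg
The Dlg3 promoter had 69.2% G and C and 19 CG dinucleotides, that of Dlg4 56.8% and 14, and that of Dlg2 45.2% and 3, beside medians of 52.4% and 6 over 32851 promoters. These were picked as the promoters richest in CG, and the others of the same genes had 7 CG for Dlg3, 4 and 11 for Dlg4, and 1 and 2 for Dlg2. Outside the Dlg family, the promoter of Dlgap3, a gene highest in CamK, had 46.8% and 2 CG. That of Shank3 had 82.4% and 31, and those of Dlgap1 had 55.2% and 9 and 52.4% and 7. Whether CG content goes with the levels was not tested. GGGCGG was found in 5 of the 16 promoters, from Dlg1, Dlg3, Dlg4 and Shank3, beside 32.7% of all promoters. CAGATG was found in 2, from Dlg2 and Dlgap3 (14.4% of all), CACGTG in 3, from Dlg1 and Dlgap1 (6.02%), CAGCTG in 1, from Dlg3 (13% of all), and TGACGTCA in 0 (1.55%). These matches are a description of the letters in the windows and no test of binding.

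The study asked how expression differs between the genotypes in each population, and for these 10 genes no difference passed the test. In each population 0 of 10 members were called between cKO and WT, where 0.0106% of all genes were called in CamK, in Grik and in SST, 2 genes each time. At an unadjusted p under 0.05 the count was also 0 of 10 in each population, beside 7.05%, 4.88% and 5.85% of all genes, and DESeq2 and limma-voom called 0 members as well. Log2 fold changes of cKO against WT lay between -0.11 and 0.12 in CamK, -0.11 and 0.10 in Grik and -0.15 and 0.07 in SST. The 95% intervals of the members reached from -0.37 to 0.35 in CamK, from -0.33 to 0.24 in the Grik comparison and from -0.39 to 0.31 in that of SST over all 10 genes. Dlg4 had a log2 fold change of -0.11 in CamK (95% interval -0.26 to 0.05), 0.10 in Grik (-0.05 to 0.24) and 0.07 in SST (-0.07 to 0.22), and Shank1 one of -0.09, -0.11 and 0.00. In Grik the cKO libraries of Dlg3 and of Shank2 were all below the WT libraries, with log2 fold changes of -0.08 (SE 0.06, edgeR adjusted p = 0.992) and -0.09 (SE 0.08, edgeR adjusted p = 0.992). The largest fold change was that of Dlgap2 in SST, -0.15 (SE 0.11, edgeR adjusted p = 0.860), where the libraries overlapped. No difference of the genotype effect between populations passed the test for a member. Of the 10, 0 were called in each of the 3 differences, beside 0.00531%, 0.00% and 0.0106% of all genes, with 0 members at an unadjusted p under 0.05, beside 6.50%, 7.85% and 3.86% of all genes, and the lowest unadjusted p, 0.0616, for Dlg4 in CamK against Grik. Of the 20 non-neuronal markers, 18 in CamK, 18 in Grik and 17 in SST had a log2 fold change of cKO against WT above 0. The medians were 0.60, 0.185 and 0.389, and 0 of these markers were called in each population. With their score as a covariate edgeR also called 0 members in each population.

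**Figure D5:**
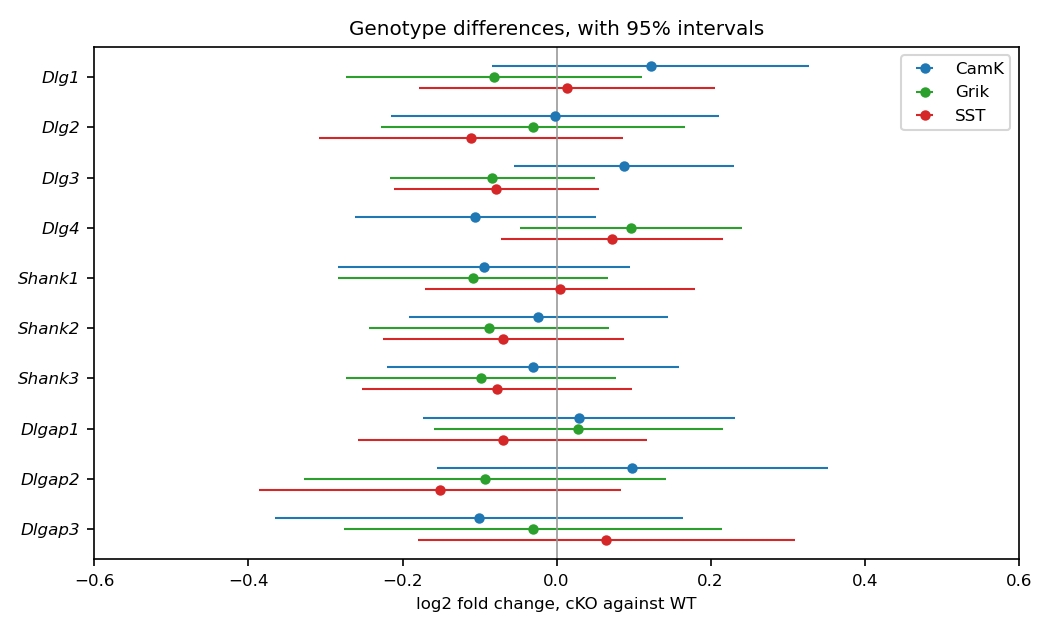
Log2 fold change of cKO against WT for the 10 genes in CamK, Grik and SST libraries, with 95% intervals from the edgeR fit. All intervals include 0, and the largest value is -0.15 for Dlgap2 in SST.

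The partners of these scaffolds were counted in 4 lists, also chosen with earlier results of these data known. Of 16 signalling and cytoskeletal partners of Dlg proteins, 11 were higher and 1 lower in CamK than in SST in WT, with a median log2 fold change of 1.44, where 29.5% of all genes were called higher and 30.5% lower. The largest were Kcnj2 (3.14, SE 0.33, edgeR adjusted p = 2.70e-08) and Kcnj4 (2.24, SE 0.16, edgeR adjusted p = 2.44e-11), inward rectifier potassium channels whose tails bind PDZ domains, and Kalrn (2.54, SE 0.11, edgeR adjusted p = 5.42e-16). Of 13 partners of Shank and Dlgap proteins, 11 were higher and 1 lower, with a median of 1.25, led by the actin regulator Baiap2 (3.58, SE 0.13, edgeR adjusted p = 1.44e-16), Homer3 (2.69, SE 0.19, edgeR adjusted p = 4.06e-11) and Synpo, the spine apparatus protein synaptopodin (2.53, SE 0.07, edgeR adjusted p = 7.97e-19). The other MAGUK and Dlgap-family genes gave 7 higher and 3 lower of 12, with a median of 0.28, among them Lin7c (1.44), Lin7b (1.38) and Dlgap4 (0.99), the remaining broadly expressed Dlgap gene (edgeR adjusted p = 2.84e-11, 1.98e-11 and 3.31e-11). Of 6 genes of the inhibitory postsynaptic scaffold, 2 were higher and 1 lower, a number close to that background for 6 genes, among them Gphn, which encodes gephyrin and was higher (0.39, edgeR adjusted p = 9.74e-06), and Iqsec3, which was lower (-0.29, edgeR adjusted p = 0.00169). In cKO libraries the counts against SST were 12 higher and 1 lower, 11 and 1, 6 and 1, and 2 and 1, in the same order of lists, where 56.4% of all genes were called and 26.9% were higher.

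The same lists were counted between the pyramidal populations. In CamK against Grik in WT, 7 Dlg partners were higher and 2 lower, where 42.0% of all genes were called and 20.9% were higher, and the named ones were Kcnj4 (1.45, SE 0.16), Kcnj2 (1.31, SE 0.31) and the scaffold Tanc1 (-0.90, SE 0.12), with edgeR adjusted p = 8.23e-08, 0.00133 and 2.69e-06. The Shank and Dlgap partners gave 2 higher and 2 lower, with Homer2 and Homer3 in opposite directions and Homer1 not called (log2 0.37, edgeR adjusted p = 0.0671): Homer3 had 45.2 ± 7.18 CPM in CamK WT and 237 ± 20.7 CPM in Grik WT (log2 -2.39, SE 0.18, edgeR adjusted p = 6.26e-10), and Homer2 96.9 ± 5.73 and 33.0 ± 2.80 CPM (log2 1.55, SE 0.09, edgeR adjusted p = 1.20e-12), with n = 4 each. Baiap2 was higher in CamK by 0.44 (edgeR adjusted p = 0.00470). The other MAGUK genes gave 4 higher and 3 lower, and the 3 largest were all lower in CamK: Mpp3 (-1.36, SE 0.09), Dlg5 (-1.08, SE 0.07) and Magi3 (-0.88, SE 0.08), with edgeR adjusted p = 8.72e-12, 2.19e-11 and 1.27e-09. The inhibitory list gave 1 higher, Lhfpl4 (0.33, edgeR adjusted p = 2.62e-04), and 2 lower, among them Iqsec3 (-0.67, edgeR adjusted p = 8.43e-08). In the cKO libraries the lists gave 7 higher and 1 lower, 3 and 3, 3 and 3, and 1 and 1, where 35.7% of all genes were called and 17.4% were higher. Grik exceeded SST in WT for 13 Dlg partners, 9 Shank and Dlgap partners, 7 other MAGUK genes and 3 inhibitory genes, and was lower for 2, 1, 4 and 2, where 28.1% of all genes were higher and 29.2% lower. In cKO it was higher for 11, 9, 7 and 3 and lower for 1, 1, 3 and 2, where 27.9% of all genes were higher and 30.0% lower. Of the 16, 13, 12 and 6 genes in these lists, 0 were called between cKO and WT in any population by edgeR, where 0.0106% of all genes were called in each. Unadjusted p-values under 0.05 numbered 1 over the lists in CamK, 1 in Grik and 3 in SST, where 7.05%, 4.88% and 5.85% of all genes had one.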

How the data were processed

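Read counts per gene were deposited by the authors as 1 table of 23 columns, whole numbers with no normalization, made with Trimmomatic and STAR on GRCm38, per the submitters' processing notes, which give no versions. Columns were matched to samples by population, genotype and number. Rows that name no gene held 12.4 to 18.4% of the reads and were left out. Of 45706 gene identifiers, 45143 matched GENCODE M21, the source of positions and lengths. The strand setting of the counting is not given in the sources used here. In R 4.3.3, edgeR 4.0.16 fitted 1 quasi-likelihood model (robust, TMM scaling, 17 residual degrees of freedom, common biological coefficient of variation 16.3%) with a mean for each of 6 groups to the 18823 genes that passed filterByExpr (minimum count 10). P-values were adjusted by Benjamini-Hochberg over all of these genes, with a threshold of 0.05. "Higher" and "lower" in counts mean past that threshold. CPM are counts per 1000000 with TMM scaling. The steps were tested on simulated data. Alternatives were relative log expression scaling, other filters, DESeq2 1.42.0, limma-voom (limma 3.58.1), only the groups compared, the replicate number as a block, the non-neuronal markers' mean log2 CPM as a covariate, and leaving out each library. The members and all gene lists were chosen with earlier results of these data known. Named partners are the up to 3 of each list with the largest change in WT that were called the same way in cKO, with 1 such partner not reported here, and the genes most like a member are the 2 with the highest r. Promoters are from RefSeq. Python 3.11.15 drew the figures.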

Additional observations from a re-analysis of the deposited data

Results flagged for a closer look

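Shank1 in SST WT replicate 5 had 150.5 CPM, apart from the other 3 libraries of that group at 171 to 175 CPM, and was picked out as a sample far from the others. Of the members, 50 groups of 4 libraries were examined in this way, of which chance alone picks out about 1 in 20, or 2.5, and 1 was found.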

How the results depend on the processing

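No member changed direction past the threshold under any alternative run. With the non-neuronal score as covariate, which does not overlap between CamK and the other populations and so cannot be told apart from them, 3 members were called between CamK and Grik in WT, 3 in cKO, and 6 between CamK and SST in WT, in place of 7, 7 and 10 (22%, 24.5% and 36.7% of all genes, in place of 42.0%, 35.7% and 60.1%). The cause was not tested. Leaving out 1 library at a time gave 5 to 7 members called between CamK and Grik in WT and in cKO, 9 to 10 between CamK and SST in WT, 8 to 9 in cKO, 6 to 7 between Grik and SST in each set, and 0 in all genotype and difference tests. The labels do not say whether the replicate numbers pair the samples, and no pairing was used in the main fit. Same-numbered libraries had correlations of -0.0908 to 0.114 in their deviations from the group means, which cannot settle this. With the replicate block, 6 members were called between CamK and Grik in WT and 8 in cKO, 10 and 9 between CamK and SST, 6 and 6 between Grik and SST, and 0 between genotypes. Over all genes, cKO against WT gave 16, 14 and 11 calls in CamK, Grik and SST by DESeq2 and 6, 39 and 0 by limma-voom, beside 2 each by edgeR, with 0 members among them. Unscaled CPM moved 11 of 60 group means of the members by over 1 SD (-5.57 to 6.99%), and relative log expression scaling moved 0. Lengths moved the shares by construction: by longest transcript and with no length, Dlg4 came to 55.9 and 57.5% of its family in CamK WT, 49.2 and 50.2% in Grik WT and 38.85 and 38.87% in SST WT, Dlgap3 to 28.4 and 19.6%, 26.9 and 18.7%, and 23.2 and 16.2%, and Shank1 to 28.7 and 32.5% in Grik WT, 40.8 and 45.7% in SST WT and, by longest transcript, 35.3% in CamK WT. Of single members, Dlgap2 passed the threshold in CamK against Grik in cKO with the block (adjusted p = 0.0485), Dlgap1 in Grik against SST in cKO with limma-voom (adjusted p = 0.0468) and without SST cKO 4 (edgeR adjusted p = 0.0396). Each member had at least 4773 reads in a library.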
